A study of Mus musculus with 33 samples.

Results

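The genes of the myoepithelial contractile programme, 8 in number, were followed across RNA-seq libraries of mouse mammary tumours. The group held 2 genes of lineage factors (Trp63 and Sox10), 5 genes of the smooth muscle contractile machinery (Acta2, Myh11, Cnn1, Mylk and Tagln) and Oxtr, the gene of the oxytocin receptor. They were taken by gene symbol, each symbol matched 1 row, and they make 8 of the 54532 rows of the count table. The rule uses no measured value, but the members were chosen with earlier results of these data known. All 8 are given in every group.

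All libraries came from tumours labelled as mammary and of the FVB mouse strain, and the labels give no other allele. The growth protocol speaks of tumours transplanted into mice, and whether this holds for the untreated libraries was not settled here. Groups are called by the letters in their titles. VEH_7 (3 libraries) and VEH (4 libraries) had received vehicle. M20_7 (4 libraries) and MYT (11 libraries) had received RP-6306, an inhibitor of the CDK1-inhibitory kinase PKMYT1, at 20 mg/kg. SPON (5 libraries) and WT (5 libraries) were untreated. The design text names cyclin E transgenic and PyMT tumours, but the labels do not assign either to a group and do not say what the ending _7 means, how long each mouse was treated or which tumour line a library came from. Nor do they say whether each library of a group is a mouse of its own, so the p-values rest on the spread among libraries, which may be technical in part. Libraries of the groups ending in _7 held 26517748 to 34637096 counts, and the other 25 held 13701115 to 20105407.

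Myoepithelial cells form the outer, basal layer of mammary ducts and alveoli and lie between the luminal cells and the basement membrane. They are epithelial cells that carry the contractile proteins of smooth muscle. Oxytocin released during suckling binds its receptor on them, calcium rises, myosin light chain kinase acts on myosin, and the contraction expels milk. The transcription factor p63, the product of Trp63, is needed for the basal lineage, while SOX10 is found in basal and in some luminal progenitor cells as well as in neural crest and glia. The contractile genes are shared with vascular smooth muscle, pericytes and myofibroblasts, so in whole tumours they are not specific to the epithelium.

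The label of the tissue was checked against markers of mammary epithelium. Epcam, an adhesion protein of epithelial cells, stood at 657 to 1934 CPM (read counts scaled to the size of the library) in every library of MYT, SPON and WT, at 8.92 to 239 CPM in VEH, and at 0.977 to 9.75 CPM in VEH_7 and M20_7. Krt8, a keratin of luminal cells, stood at 505 to 1535 CPM in VEH and at 4.62 to 20.5 CPM in the groups ending in _7. Both markers were thus at low levels in all of the 7 libraries ending in _7. The pattern of the 8 genes in all groups is shown in the plot of levels by library.

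**Figure D1:**
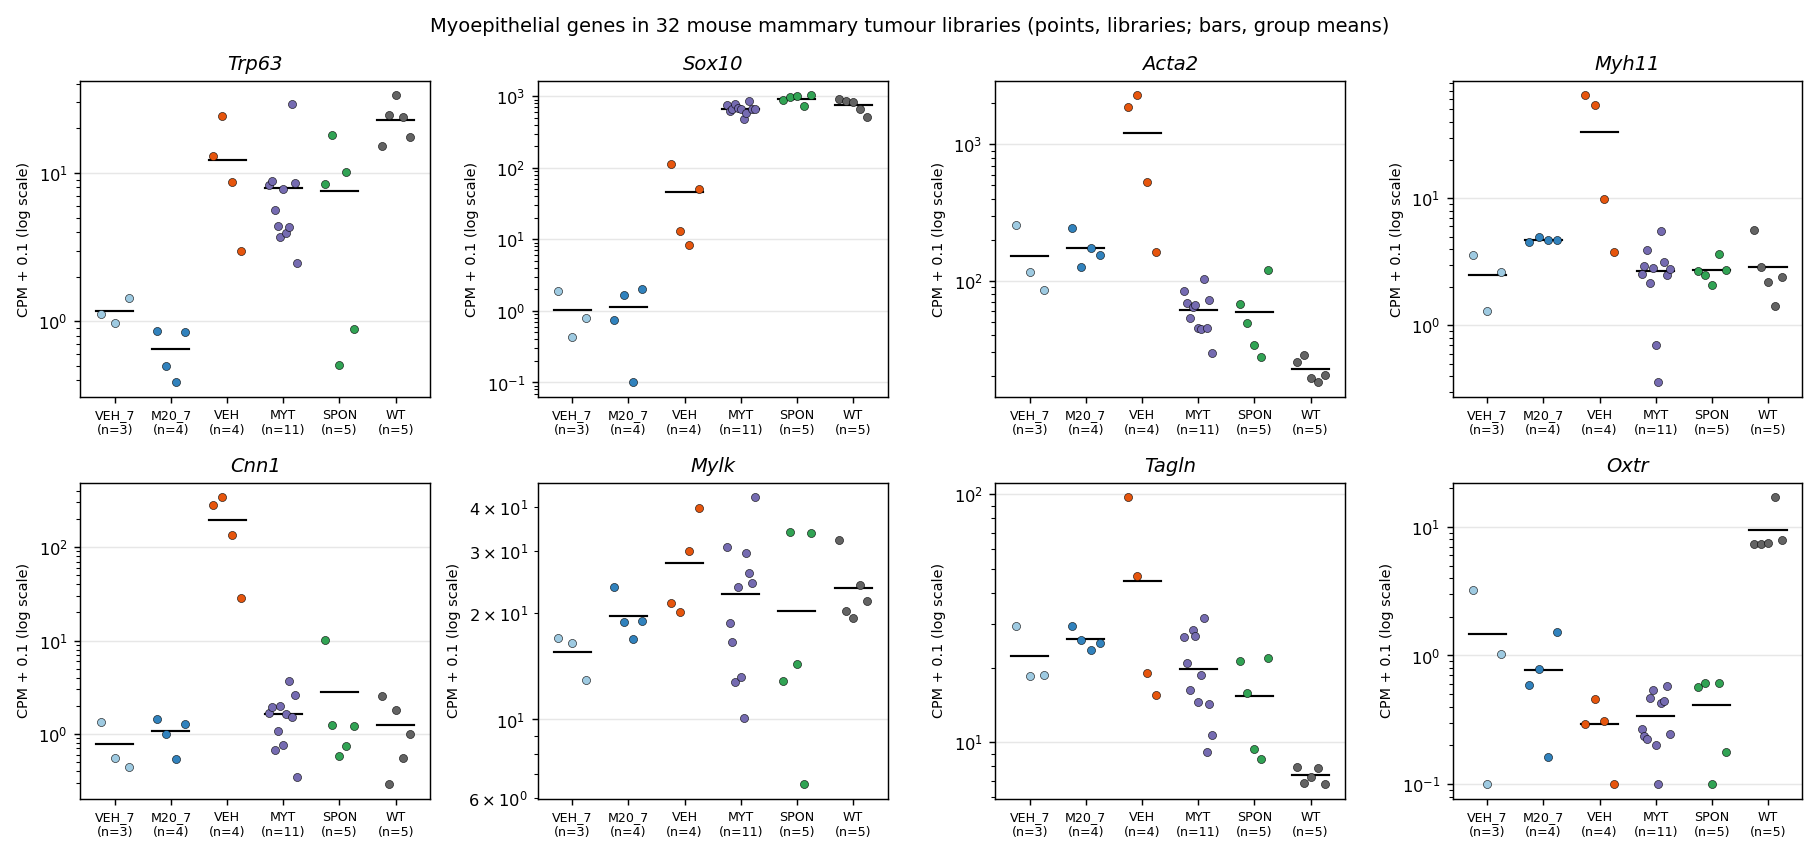
CPM of each of the 8 genes (plus 0.1, on log axes that differ between panels) in the 32 libraries; points are libraries in replicate order, and bars are group means. Sox10 is high in all MYT, SPON and WT libraries, Cnn1 is high only in the 4 VEH libraries, and Oxtr is high only in the 5 WT libraries.

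Sox10 (ENSMUSG00000033006, GRCm38 chr15:79154908-79165240, minus strand) had the widest range between groups of both lineage factors. Its CPM in VEH_7 was 1.82, 0.326 and 0.690. In M20_7 it was 0.643, 1.55, 0 and 1.96, and the count of 0 in replicate 3 allows up to 0.0973 CPM (3 counts of that library, counting error only). In VEH it was 113, 12.9, 8.22 and 50.7. The 4 VEH libraries lay above all 7 libraries ending in _7, and replicates 1 and 4 were the higher pair among them. The lowest of the 11 MYT libraries was at 485 CPM, the median at 659 and the highest at 862. SPON libraries stood at 892, 964, 998, 724 and 1028 CPM, and WT libraries at 907, 863, 819, 666 and 506 CPM. The groups fell in the order SPON (921 ± 121, SD, n = 5), WT (752 ± 165, SD, n = 5), MYT (673 ± 97.6, SD, n = 11), VEH (46.1 ± 48.3, SD, n = 4), M20_7 (1.04 ± 0.884, SD, n = 4) and VEH_7 (0.945 ± 0.779, SD, n = 3). Neighbours in this order overlapped except MYT with VEH and VEH with M20_7.

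Trp63 (ENSMUSG00000022510, chr16:25683763-25892102, plus strand) was at low levels throughout and followed another order. Its CPM was 1.02, 0.880 and 1.34 in VEH_7, and 0.756, 0.403, 0.287 and 0.745 in M20_7. It was 12.9, 24.1, 8.57 and 2.86 in VEH. These first 3 groups did not overlap with one another. MYT libraries ranged from 2.38 through a median of 5.49 to 29.2 CPM, and the highest, replicate 9, was the only one above 8.74. SPON libraries stood at 8.33, 18.0, 0.408, 10.1 and 0.791 CPM, so that replicates 3 and 5 were at the level of the libraries ending in _7. WT libraries stood at 15.0, 24.4, 33.2, 23.6 and 17.4 CPM, and WT had the highest mean (22.7 ± 7.11, SD, n = 5). VEH (12.1 ± 8.97, SD, n = 4), MYT (7.81 ± 7.42, SD, n = 11) and SPON (7.52 ± 7.29, SD, n = 5) came next, each overlapping its neighbour. The counts are per gene, and the long and short forms of p63 were not resolved.

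Acta2 (ENSMUSG00000035783, chr19:34241090-34255590, minus strand), the gene of smooth muscle alpha-actin, was highest in VEH. There it stood at 1869, 2293, 527 and 161 CPM, so that replicates 1 and 2 were far above replicate 4. VEH_7 libraries stood at 254, 115 and 84.5 CPM and M20_7 libraries at 242, 125, 172 and 154 CPM. MYT ranged from 29.0 through a median of 63.6 to 102 CPM. SPON libraries stood at 67.1, 48.8, 33.6, 27.4 and 119 CPM, and WT libraries at 25.3, 28.4, 19.1, 17.7 and 20.2 CPM. All 4 VEH libraries lay above all MYT, SPON and WT libraries, whereas VEH replicate 4 lay within the range of M20_7. The protein of Acta2 is nearly identical to those of Acta1 and Actg2. Any reads shared between these genes may have been split or dropped, so the level of Acta2 is uncertain.

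The sequence before the start of Acta2 is shown because it carries sites of the kind that serum response factor (SRF) binds, and the contractile genes are textbook targets of SRF. A CArG box is CC, then 6 bases of A or T, then GG, and it reads as the same pattern on both strands. The RefSeq promoter table (GRCm38.p6) held 4 of the 8 genes, namely Acta2, Cnn1, Mylk and Oxtr. Over the 250 bases before the start, chr19:34255374-34255623 for Acta2, no exact CArG box was found in any of the 4. Acta2 held 2 sites with 1 C or G among the 6 middle bases, and the other 3 genes held none. They are printed 5′ to 3′ on the strand of the gene, with 10 flanking bases on each side and the site in capitals.
Acta2 site 84 bases before the start, chr19:34255438-34255467: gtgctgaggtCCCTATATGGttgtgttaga
Acta2 site 34 bases before the start, chr19:34255388-34255417: cgtctttgctCCTTGTTTGGgaagcgagtg
GENCODE M21 places both windows in the first exon of 1 longer Acta2 transcript, as untranslated sequence. Of 32851 promoters in the table, 1.47% held an exact CArG box in the same 250 bases and 7.24% a site with 1 C or G in the middle. These matches describe letters in a window and say nothing of binding.

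Cnn1 (ENSMUSG00000001349, chr9:22099216-22109630, plus strand) encodes calponin 1, an actin-binding protein of differentiated smooth muscle and myoepithelium. In VEH it stood at 284, 342, 133 and 28.5 CPM, above each of the other 28 libraries. The next highest library was SPON replicate 1 at 10.1 CPM, and the other SPON libraries stood at 1.14, 0.477, 0.646 and 1.11 CPM. MYT ranged from 0.243 through a median of 1.54 to 3.60 CPM. WT ranged from 0.190 to 2.43 CPM, and the 7 libraries ending in _7 from 0.345 to 1.36 CPM. The group means were 197 ± 143 (SD, n = 4) in VEH, 2.7 ± 4.16 (SD, n = 5) in SPON, 1.53 ± 0.957 (SD, n = 11) in MYT, 1.14 ± 0.927 (SD, n = 5) in WT, 0.970 ± 0.399 (SD, n = 4) in M20_7 and 0.684 ± 0.494 (SD, n = 3) in VEH_7. Apart from VEH, neighbours in this order overlapped.

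Myh11 (ENSMUSG00000018830, chr16:14194535-14291372, minus strand), the smooth muscle myosin heavy chain, was also highest in VEH, at 64.2, 53.6, 9.68 and 3.64 CPM. VEH replicate 4 was within the range of MYT, which ran from 0.256 through a median of 2.68 to 5.44 CPM. VEH_7 libraries stood at 3.49, 1.21 and 2.52 CPM and M20_7 libraries at 4.43, 4.89, 4.56 and 4.60 CPM, with no overlap. SPON ranged from 1.97 to 3.55 CPM and WT from 1.31 to 5.52 CPM. After VEH, the groups M20_7, WT, SPON, MYT and VEH_7 followed, with overlap between all neighbours.

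Tagln (ENSMUSG00000032085, chr9:45929619-45936058, minus strand), which encodes the actin-binding protein transgelin, stood in VEH at 97.4, 46.7, 19.0 and 15.4 CPM. Replicates 1 and 2 were above all other libraries, and replicates 3 and 4 were inside the range of MYT (9.03, median 18.6, highest 31.6 CPM). VEH_7 ranged from 18.5 to 29.3 CPM, M20_7 from 23.4 to 29.3 CPM and SPON from 8.46 to 21.8 CPM. WT stood at 6.69 to 7.89 CPM and lay below all other groups. Of its exon length, 62.4% is shared with the antisense gene Gm48529 and 5.43% with Pcsk7 on the other strand, and no source used here gives the strand setting, so reads of these genes may be mixed.

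Mylk (ENSMUSG00000022836, chr16:34745210-35002420, plus strand), the kinase that activates smooth muscle and non-muscle myosin, had the narrowest spread of the 5 contractile genes between groups. Its mean lay between 15.4 ± 2.22 CPM (SD, n = 3) in VEH_7 and 27.7 ± 9.06 CPM (SD, n = 4) in VEH. VEH libraries stood at 21.2, 20.1, 30.0 and 39.6 CPM, so replicate 4, the lowest of the 4 for Acta2, Cnn1, Myh11 and Tagln, was the highest for Mylk. M20_7 ranged from 16.8 to 23.6 CPM, MYT from 9.98 to 42.6 CPM, SPON from 6.46 to 33.9 CPM and WT from 19.3 to 32.2 CPM. All neighbouring groups overlapped. Antisense genes share 4.87% (E130310I04Rik) and 1.99% (Gm21691) of its exon length, with the same uncertainty about strand.

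Oxtr (ENSMUSG00000049112, chr6:112473683-112489943, minus strand) was highest in WT, at 7.23, 7.24, 7.43, 16.9 and 7.86 CPM. The next highest library was VEH_7 replicate 1 at 3.15 CPM, while replicates 2 and 3 of VEH_7 stood at 0 and 0.931 CPM. M20_7 libraries stood at 0.492, 0.691, 0.0638 and 1.43 CPM. In VEH, MYT and SPON every library was at or under 0.517 CPM, and 1 library of each was at 0, which allows up to 0.215 CPM in VEH, 0.182 CPM in MYT and 0.210 CPM in SPON. Summed over libraries these groups held 11, 43 and 25 reads of Oxtr, against 846 in WT. WT did not overlap with any other group, and all other neighbours in the order of means overlapped. Oxytocin itself (Oxt) had at most 0.189 CPM in any library.

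Levels of different genes were compared per kilobase of exon. In VEH the order of mean CPM per kb was Acta2 (552), Cnn1 (71.9), Tagln (22.5), Sox10 (15.1), Myh11 (4.31), Mylk (2.46), Trp63 (1.44) and Oxtr (0.0399). In MYT, SPON and WT Sox10 came first, at 220, 302 and 247 CPM per kb, and Acta2 followed at 27.8, 26.9 and 10.1. In the groups ending in _7 Acta2 and Tagln led, at 68.8 and 11.1 CPM per kb in VEH_7 and 78.8 and 13 in M20_7. The plot of factors against contractile genes sets both roles side by side.

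Ranges of CPM were also compared over every pair of groups. MYT and SPON overlapped for all 8 members, where 4.04% of 18141 expressed genes did not overlap. WT lay apart from MYT for 3 members (27.5% of genes), with Oxtr higher and Acta2 and Tagln lower. VEH lay above SPON for Acta2, Cnn1 and Myh11 and below it for Sox10, which makes 4 members (25.8%). Against WT, VEH lay apart for 5 members (47.5%), with Acta2, Cnn1 and Tagln higher and Sox10 and Oxtr lower.

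The groups ending in _7 stood lowest for the lineage factors. M20_7 lay below VEH for Trp63, Sox10 and Cnn1, the 3 members without overlap (34.2% of genes). Against MYT it also lay apart for 3 members (39.2%), with both lineage factors lower and Acta2 higher. M20_7 lay apart from SPON for 4 members (32.4%) and from WT for 5 (54.8%), and in both Sox10 was lower and Acta2 and Tagln were higher in M20_7. VEH_7 lay apart from MYT for the 2 lineage factors (41.5%), from SPON for 1 member, Sox10 (34.5%), and from WT for 6 members (56.8%).

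**Figure D2:**
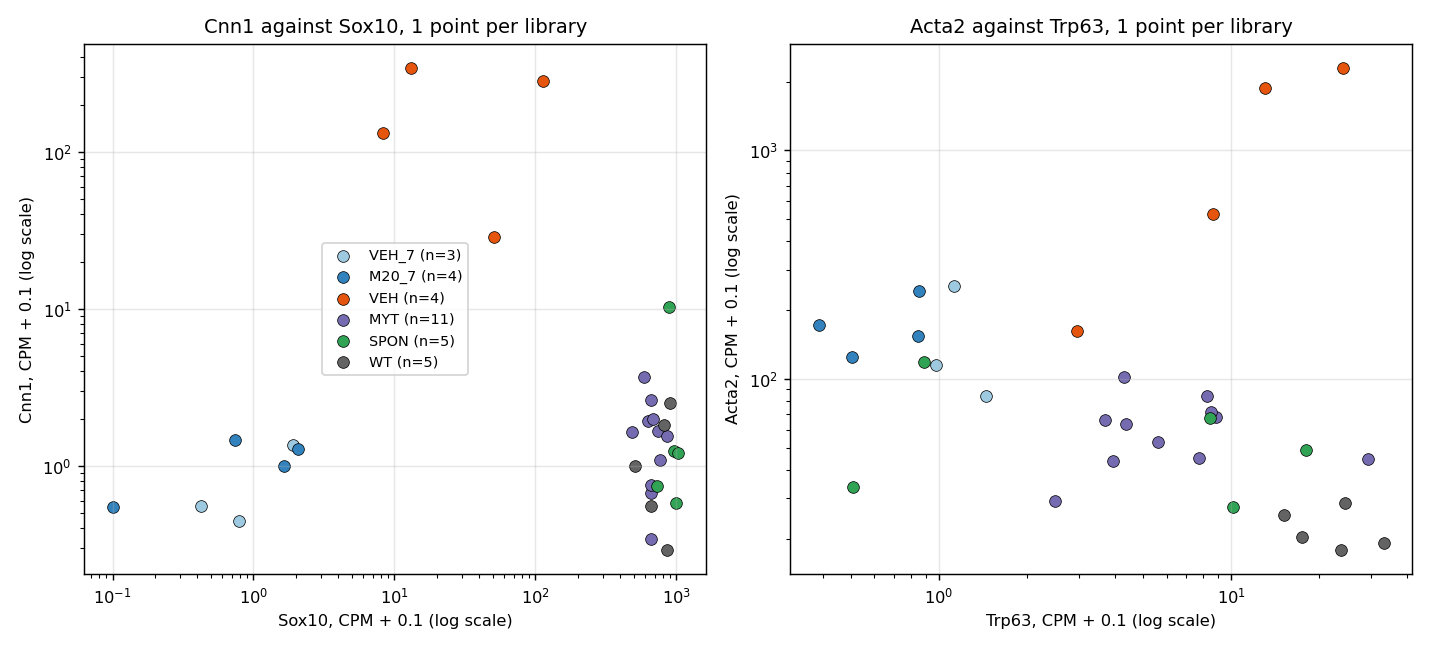
Left, Cnn1 against Sox10, and right, Acta2 against Trp63, both as CPM plus 0.1 on log axes, with 1 point per library and colours for the 6 groups. The 4 VEH libraries stand apart with Cnn1 at 28.5 to 342 CPM and Sox10 at 8.22 to 113 CPM, whereas MYT, SPON and WT have Sox10 at 485 CPM or more and Cnn1 at 10.1 CPM or less.

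Whether RP-6306 changed these genes was asked in each treated set. Between MYT and VEH, 5 of the 7 members that could be tested passed the edgeR quasi-likelihood test (Benjamini-Hochberg adjusted p under 0.05). This is to be read against the 59.5% of all 16021 genes tested that passed, 30.5% as higher and 29.0% as lower in MYT. Sox10 was higher in MYT and the contractile genes Cnn1, Acta2, Myh11 and Tagln were lower, as the plot of fold changes shows. Oxtr was not tested because of low counts. Since the labels give no tumour line for the treated or vehicle libraries, tumour line and treatment cannot be told apart in either set. VEH and MYT also differed in markers of several cell types, given after the members, and how much of the members' differences goes with those was not tested. In bulk tumours, fewer cells of a type and less RNA per cell cannot be told apart.

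For Sox10 the log2 fold change was 3.87 with a standard error of 0.53 (edgeR adjusted p = 1.04e-05; errors after ± are standard errors from here on), and all 11 MYT libraries lay above all 4 VEH libraries. Without VEH replicate 1, the VEH library with the most Sox10, the value was 4.84. Cnn1 had the largest difference of the members, with a log2 fold change of -7.02 ± 0.50 (edgeR adjusted p = 1.01e-08), and all MYT libraries lay below all VEH libraries. Acta2 followed with -4.31 ± 0.42 (2.56e-07), likewise without overlap, and Myh11 with -3.67 ± 0.56 (2.77e-05), where VEH replicate 4 overlapped with MYT. Sample ranges did not overlap for 3 of the 8 members, against 31.8% of 18141 expressed genes.

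Tagln was lower in MYT by a smaller step, -1.18 ± 0.38 (edgeR adjusted p = 0.0138). Without VEH replicate 1 its value was -0.44 (adjusted p = 0.301), so the call rested on that library. Trp63 did not pass (-0.62 ± 0.55, edgeR adjusted p = 0.345). Without MYT replicate 9, the library with 29.2 CPM, Trp63 stood at -1.09 and passed (adjusted p = 0.0298). Mylk did not pass either, at -0.30 ± 0.30 (adjusted p = 0.416).

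**Figure D3:**
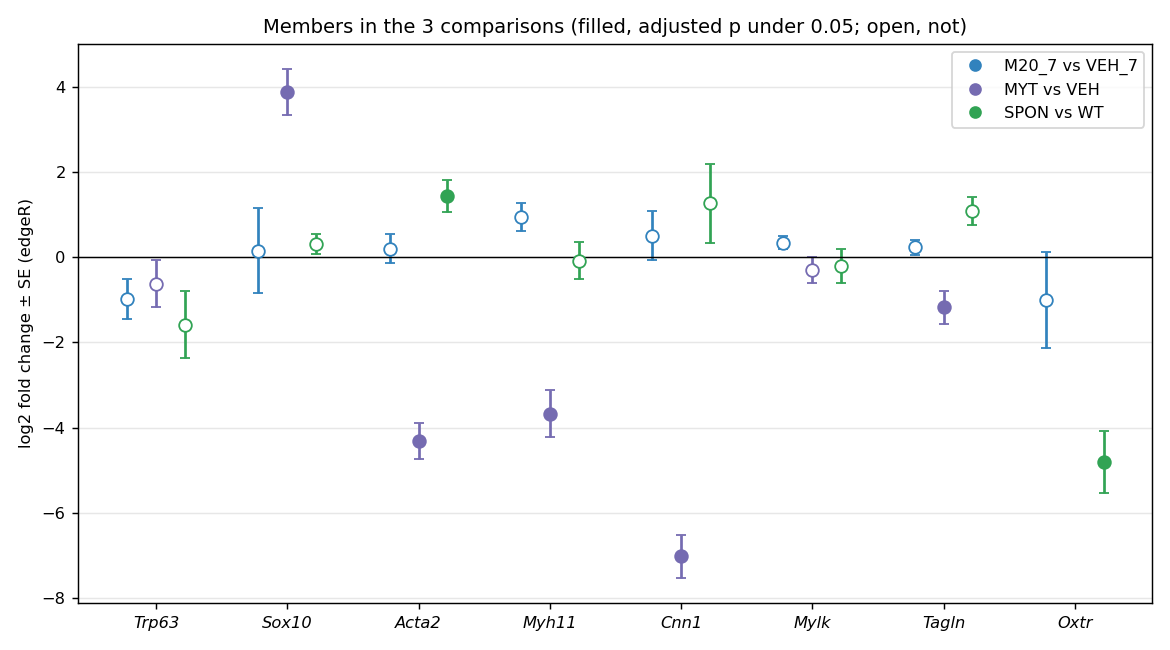
Log2 fold changes (edgeR, ± SE) of the 8 genes in M20_7 against VEH_7, MYT against VEH and SPON against WT; filled points passed at an adjusted p under 0.05 and open points did not. Cnn1, Acta2 and Myh11 lie at -7.02, -4.31 and -3.67 and Sox10 at 3.87 in MYT against VEH, and Oxtr lies at -4.81 in SPON against WT; Oxtr has no point in MYT against VEH.

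In the set ending in _7, none of the 8 members passed, and neither did any of the 16699 genes tested (0%; smallest edgeR adjusted p = 0.113, with 1033 genes at an unadjusted p under 0.05). The number was 55 with DESeq2, 6 when edgeR was run on unfiltered counts, and 0 with limma voom, and the members called stayed at 0 with each of these. The contractile genes had log2 fold changes of 0.95 ± 0.33 (Myh11, edgeR adjusted p = 0.762), 0.51 ± 0.58 (Cnn1), 0.34 ± 0.16 (Mylk), 0.23 ± 0.18 (Tagln) and 0.19 ± 0.34 (Acta2). Trp63 stood at -0.98 ± 0.47 (adjusted p = 0.810), Oxtr at -1.0 ± 1.13 and Sox10 at 0.15 ± 1.0. Ranges did not overlap for 2 of the 8 members, Trp63 and Myh11, against 6.41% of expressed genes.

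Whether the fold change under RP-6306 was itself unequal in the 2 sets was tested directly. This passed for 4 of the 8 members, 3 of them lower and 1 higher, where 36.0% of 17095 genes passed, 18.9% as lower and 17.0% as higher. Cnn1 (-7.52 ± 0.97, edgeR adjusted p = 6.13e-06), Myh11 (-4.61 ± 0.95, 7.29e-04) and Acta2 (-4.50 ± 0.76, 9.86e-05) had lower fold changes in the set without the ending. Sox10 had a higher one (3.70 ± 1.0, 0.00601). Without VEH_7 replicate 1, Sox10 stood at 2.82 and no longer passed (adjusted p = 0.0829), while Acta2 stood at -5.10 and Cnn1 at -8.27. Without VEH replicate 1, Sox10 stood at 4.63. Tagln (-1.39 ± 0.59, adjusted p = 0.0705), Mylk (-0.63 ± 0.45), Trp63 (0.37 ± 0.91) and Oxtr (1.33 ± 1.35) did not pass. The vehicle groups of the 2 sets themselves had ranges that did not overlap for 5 of the 8 members, against 36.2% of expressed genes. Mean CPM in VEH_7 and in VEH was 0.684 and 197 for Cnn1, 2.40 and 32.8 for Myh11, and 0.945 and 46.1 for Sox10. Cnn1 and Myh11 thus had little room to fall in the set ending in _7. For these genes the test cannot separate an unequal response from unequal starting levels. Treatment length and tumour line cannot be told apart from the set.

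Between the untreated groups, 2 of the 8 members passed, 1 higher and 1 lower in SPON. Of 15558 genes tested, 8.38% passed, 4.52% as higher and 3.86% as lower. Oxtr was lower in SPON than in WT, with a log2 fold change of -4.81 ± 0.73 (edgeR adjusted p = 0.00459), without overlap between the groups. Leaving out any 1 library left Oxtr between -5.07 and -4.50 and past the threshold. Acta2 was higher in SPON (1.42 ± 0.38, adjusted p = 0.0400), where the lowest SPON library at 27.4 CPM overlapped with the highest WT library at 28.4 CPM. That call was lost in 7 of 10 fits without 1 library (without SPON replicate 1 or 5 or any WT replicate; range 1.01 to 1.58, adjusted p from 0.0260 to 0.106).

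Tagln stood at 1.09 ± 0.32 in SPON against WT and missed the threshold (edgeR adjusted p = 0.0585), although its ranges did not overlap. Oxtr and Tagln were the 2 of 8 members without overlap, against 9.12% of expressed genes. Cnn1 stood at 1.26 ± 0.93 (adjusted p = 0.416), and at -0.42 without SPON replicate 1. Trp63 stood at -1.58 ± 0.78 (adjusted p = 0.219), Sox10 at 0.30 ± 0.24 (0.448), Myh11 at -0.08 ± 0.43 (0.928) and Mylk at -0.21 ± 0.41 (0.782). Without WT replicates 1, 2, 3 or 4 in turn, 550, 508, 545 and 506 genes passed, against 1303 with all libraries.

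Other genes of the contractile pathway were read from lists, whose counts in MYT against VEH stand beside 30.5% higher and 29.0% lower over all genes, and in SPON against WT beside 8.38% called. Of 24 tested genes of smooth muscle contraction and its cytoskeleton, 14 were lower and 3 higher in MYT than in VEH (29.0% and 30.5% over all genes; median log2 fold change -0.63, against 0.04 over all genes tested). Those with the smallest p were Tpm2, a tropomyosin (-4.70 ± 0.27), Myl9, the regulatory light chain of smooth muscle myosin (-4.82 ± 0.41), Vcl, the adhesion protein vinculin (-2.62 ± 0.23), and Tpm1 (-1.19 ± 0.11). Myl9 stood at 420, 474, 181 and 53.9 CPM in the 4 VEH libraries, in the same order as Cnn1. In MYT it stood at 5.25 to 22 CPM. In SPON against WT, 2 of 25 passed, a share near the 8.38% of all genes. Both were higher, namely the intermediate filament gene Synm (2.43 ± 0.59) and the smooth muscle actin Actg2 (2.37 ± 0.64). In M20_7 against VEH_7, 0 of 25 passed.

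The transcription factors that drive contractile genes did not all move one way. Of the 3 tested genes of SRF and its myocardin-family partners, Mrtfa was lower (-0.95 ± 0.09, edgeR adjusted p = 2.07e-07) and Mrtfb higher (0.64 ± 0.13, 5.70e-04) in MYT than in VEH. Srf stood at 0.00 ± 0.13 (0.998). Myocd, the myocardin of differentiated smooth muscle, had at most 0.662 CPM in any library of the 6 groups. None of the 3 passed in SPON against WT or in M20_7 against VEH_7.

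Of 18 tested genes that carry the oxytocin signal from the receptor to myosin, 7 were lower and 5 higher in MYT than in VEH (median -0.03), not far from the 29.0% lower and 30.5% higher of all genes. Rhoa (-1.0 ± 0.10), Rock2 (-1.38 ± 0.20) and Plcb4 (-3.49 ± 0.51) were among those with the smallest p. They encode a small GTPase, a kinase that it activates and a phospholipase C. None of the 18 passed in SPON against WT, where 8.38% of all genes did.

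Among the relatives of the lineage factors, Sox8 was higher in MYT than in VEH (4.38 ± 0.53, edgeR adjusted p = 2.60e-06), as Sox10 was, and Sox9 stood at 0.15 ± 0.17 (0.466). Trp53, the other tested gene of the p53 family, did not pass there (0.36 ± 0.20, adjusted p = 0.139). In SPON against WT, Trp53 was lower (-2.89 ± 0.71, adjusted p = 0.0310), with 2.39 to 47.2 CPM in SPON and 133 to 259 CPM in WT.

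Keratins, adhesion and matrix genes of basal epithelium, several of them known targets of p63, differed in both directions in MYT against VEH, with 10 of 23 higher and 8 lower (30.5% and 29.0% over all genes). Lama3, a laminin chain of the epithelial basement membrane (4.74 ± 0.48), was higher. Col7a1, the collagen of anchoring fibrils (-2.30 ± 0.18), and Cav1, the caveolar coat protein (-3.82 ± 0.37), were lower. In SPON against WT, 2 of 24 passed, both higher, among them Cav1 (3.52 ± 0.75), and this share is near the 8.38% of all genes.

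Markers of other cell types were set beside the members, because the contractile genes and Sox10 are not limited to myoepithelium. The plot of listed genes gives them by list. Over all genes tested, 30.5% were higher and 29.0% lower in MYT than in VEH. Of 16 luminal markers, 15 were higher and 1 lower in MYT than in VEH, led by Gata3 (1.69 ± 0.19), Prlr (3.89 ± 0.44), Muc1 (3.14 ± 0.38) and Krt18 (3.54 ± 0.46). Their summed level was 4696 to 12394 CPM in MYT and 650 to 1884 CPM in VEH, with no marker at 0 throughout either group. Luminal markers and Sox10 were thus both higher in MYT as a group. Within MYT, replicate 7 had the highest luminal sum and the lowest Sox10, at 485 CPM. Replicate 9 had the highest Sox10, at 862 CPM, with a luminal sum of 6778 CPM. How far Sox10 goes with these markers was not tested. Of 12 fibroblast markers, 11 were lower in MYT, led by Pdpn (-5.65 ± 0.34), Fbn1 (-3.12 ± 0.25), Pdgfra (-4.05 ± 0.40) and Lox (-2.94 ± 0.32). Their sum was 926 to 4831 CPM in MYT and 11045 to 19315 CPM in VEH. Their part in the differences of the contractile genes was not tested.

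In VEH_7 the fibroblast sum was 14480 to 22952 CPM, a range that overlaps with VEH. Acta2 and Tagln also overlapped between these vehicle groups, and Cnn1, Myh11 and Mylk did not. Mean Acta2 was nevertheless 151 CPM in VEH_7 and 1213 CPM in VEH. For Acta2 only VEH replicate 4, at 161 CPM, lay within the range of VEH_7. Pericyte and vascular smooth muscle markers were 2 of 12 higher and 4 lower in MYT (30.5% and 29.0% over all genes). They were led by Cspg4 (-2.39 ± 0.16), Pdgfrb (-1.98 ± 0.23), Notch3 (1.87 ± 0.35) and Mcam (-0.53 ± 0.16). Their sum was 310 to 547 CPM in MYT and 580 to 875 CPM in VEH. All 10 endothelial markers were lower in MYT (29.0% over all genes), led by Pecam1 (-1.46 ± 0.18), Cdh5 (-1.40 ± 0.21), Tie1 (-1.46 ± 0.22) and Erg (-1.49 ± 0.24). The endothelial sum was 104 to 232 CPM against 321 to 495 CPM in VEH.

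Skeletal muscle markers were lower in MYT for 4 of 5 tested genes (29.0% over all genes). In VEH their sum of 80.5 to 947 CPM was mostly Acta1, the skeletal alpha-actin. Acta1 stood at 598, 937, 217 and 70.3 CPM in the 4 VEH libraries, in the order of Cnn1, while Ckm, the muscle creatine kinase, had at most 1.70 CPM there. In MYT the sum was 1.28 to 7.87 CPM, with 1 of the 10 genes at 0 in all libraries. Schwann and neural crest markers, the other known source of Sox10, were 2 of 10 higher and 4 lower in MYT (30.5% and 29.0% over all genes). They were led by Mitf (-1.41 ± 0.22), Ednrb (-2.16 ± 0.34), Erbb3 (3.27 ± 0.60) and Ngfr (-1.58 ± 0.34). Their sum was 235 to 371 CPM in MYT and 198 to 279 CPM in VEH, which overlap. Foxd3, a transcription factor of the neural crest, was at 0 in all MYT and VEH libraries. In SPON no gene of this list was at 0 in all libraries, and the sum was 220 to 721 CPM. The part of such cells in the level of Sox10 was not tested.

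In SPON against WT, 5 of 12 pericyte markers passed, where 8.38% of all genes did. Cspg4 (2.25 ± 0.39), Ndufa4l2 (2.69 ± 0.50) and Pdgfrb (1.34 ± 0.31) were higher, in the direction of Acta2, and Steap4 (-2.61 ± 0.53) and Notch3 (-1.10 ± 0.25) lower. The summed pericyte level was 293 to 704 CPM in SPON and 289 to 483 CPM in WT, so the ranges overlapped. Its part in the difference of Acta2 was not tested. The skeletal muscle markers tested (3) did not pass either. None of the luminal, fibroblast, endothelial or Schwann markers passed there, and 1 of 5 adipocyte markers, Plin4 (-2.64 ± 0.52), was lower.

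**Figure D4:**
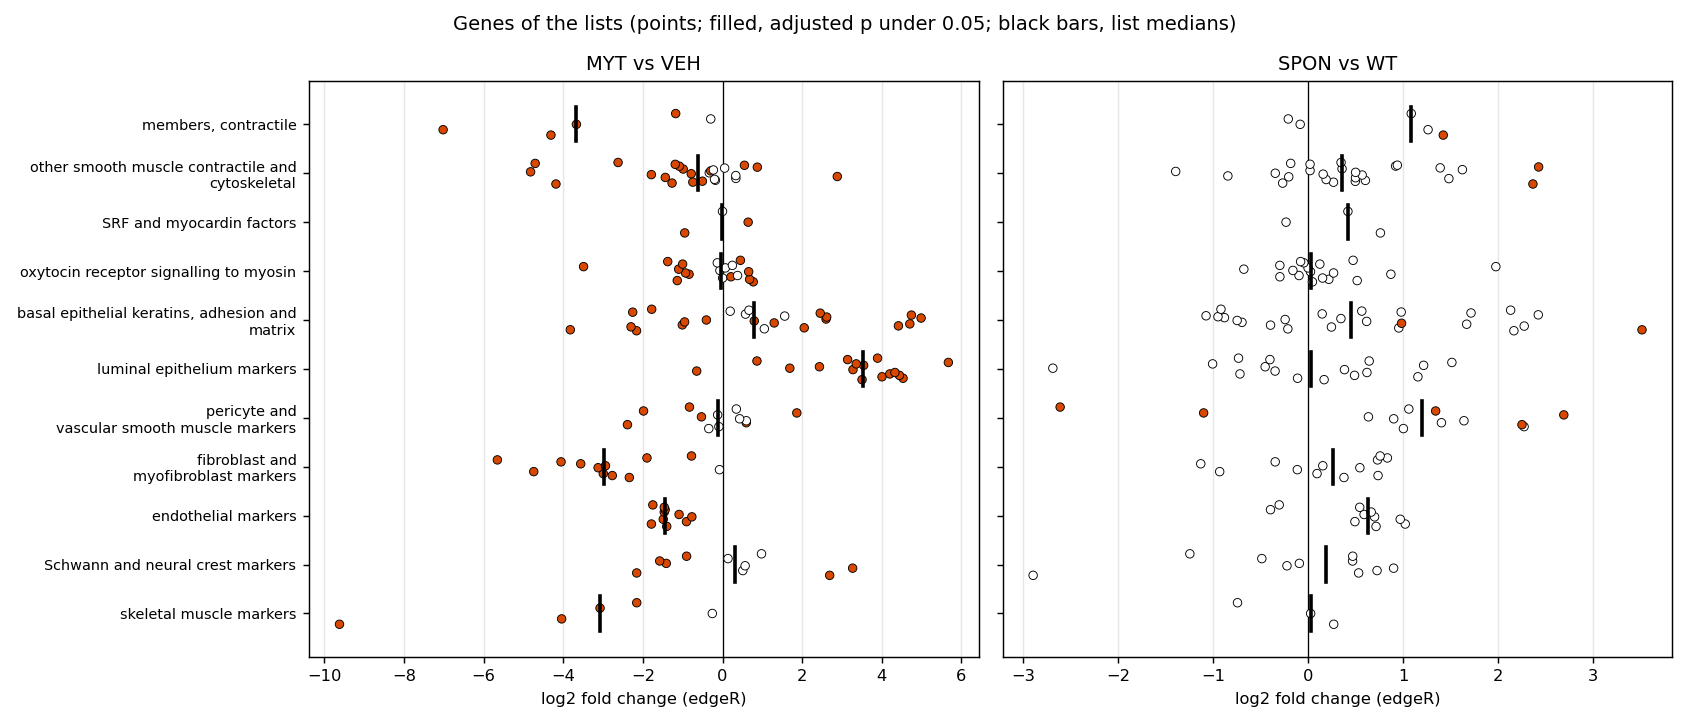
Log2 fold changes (edgeR) of listed genes in MYT against VEH (left) and SPON against WT (right), with separate horizontal scales; points are genes, filled where the adjusted p was under 0.05, and black bars are list medians. On the left, luminal markers lie to the right (median 3.52) and fibroblast (-2.97), endothelial (-1.45) and contractile member genes (-3.67) to the left.

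Within groups the members fell into different patterns. After each group's mean log2 CPM was subtracted, Acta2 correlated with Tagln (r = 0.82), Cnn1 (0.65) and Myh11 (0.63) over the 32 libraries. Mylk had r = 0.06 with Acta2 and -0.05 with Cnn1. Trp63 and Sox10 had r = 0.62 over the 32 libraries, which share their group differences, and 0.03 after the group means were subtracted. These correlations are descriptions of libraries that share groups, and none was tested.

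The genes most like each pattern were found among 11745 to 11750 expressed genes by Pearson correlation of log2 CPM over the 32 libraries. For the mean of the 5 contractile genes they were Myl9 (r = 0.91) and Mrvi1 (0.90), and after subtraction of group means Myl9 (0.90) and Rgl1 (0.65). For Sox10 they were Prss8 and Large2 (both 0.98), and within groups Tmprss2 and Myh14 (both 0.80). For Trp63 they were Tle6 (0.90) and Nqo1 (0.84), and within groups Tmprss13 (0.80) and Tle6 (0.76). For Oxtr they were Osgin2 and Abhd5 (both 0.81), and within groups Cdcp1 (0.73) and Muc15 (0.70). Myl9 was at 53.9 to 474 CPM in VEH and at most 43.2 CPM elsewhere, Prss8 at 37.1 to 127 CPM in MYT, SPON and WT and at most 7.45 CPM in VEH, and Osgin2 at 40.6 to 117 CPM in WT and at most 33.9 CPM elsewhere.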

How the data were processed

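RNA came from Trizol extracts and was sequenced by a commercial provider, per the labels' protocols. The submitters' processing notes list GRCm38 as the build and name STAR (2.7.10a), edgeR and HTSeq. The kit, strand setting and annotation release are not given in the sources used here. The authors deposited whole-number read counts for 54532 genes in 33 libraries, of which 791 rows had no symbol and held 0.0482% of the counts. They also deposited log2 CPM values, which differed from log2 CPM recomputed from the counts by 0.0576 and were not used further. The dose is 20 mg/kg, given per day in the treatment protocol and with a twice-daily abbreviation in the treatment field.

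Groups came from titles and treatment fields. For 1 library they contradict, and it entered no group. Replicates were numbered in accession order and pair nothing. No library was a copy of another of its group: in 90 pairs of replicates, chi-square divided by its degrees of freedom was at least 16.1. Libraries of different groups, and the library without a group, were not compared in this way.

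CPM values used TMM factors over all 33 libraries. Each comparison was fitted over all genes on its own groups in R 4.3.3 with edgeR 4.0.16 (low counts removed by filterByExpr, TMM factors, glmQLFit, glmQLFTest, Benjamini-Hochberg adjustment, threshold 0.05), with the standard error from the F statistic. The fits were tested on simulated data. Alternatives were DESeq2 size factors, no filter, DESeq2 1.42.0, limma 3.58.1 voom, 1 fit over 32 libraries, and each library left out. Positions and exon lengths came from GENCODE M21, promoter windows from RefSeq. Non-overlap was counted over 18141 genes that pass filterByExpr for the 6 groups.

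The members and all 16 lists (170 entries, all matched, 2 of them by identifier) were chosen with earlier results of these data known. Named genes were the members, up to 4 genes per list with the smallest edgeR p, and 2 genes per measure of likeness with a mean log2 CPM of at least 1. Levels of Epcam, Krt8, Krt5, Krt14, Krt15, Krt17, Cav1, Acta1, Ckm, Myocd, Oxt and Foxd3 were added after their values were seen. So was Notch3 in SPON against WT. Some genes that this rule names are not reported here.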

Additional observations from a re-analysis of the deposited data

Results flagged for a closer look

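Among the 32 pairs of a member and a group of 4 or 5 libraries, 2 held a library far from the rest of its group; chance gives about 1 in 20. Cnn1 stood at 10.1 CPM in SPON replicate 1, and the next highest SPON library stood at 1.14 CPM. Oxtr stood at 16.9 CPM in WT replicate 4, and the next highest WT library stood at 7.86 CPM.

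The log2 fold change of treated against vehicle libraries differed between the set without the ending _7 and the set with it for 4 members by the direct edgeR test, and tumour line and treatment length cannot be told apart from the set. The difference in log2 fold change was 3.70 for Sox10 (edgeR adjusted p = 0.00601), -4.50 for Acta2 (9.86e-05), -4.61 for Myh11 (7.29e-04) and -7.52 for Cnn1 (6.13e-06). Without VEH_7 replicate 1, Sox10 stood at 2.82 and did not pass (edgeR adjusted p = 0.0829). Mean Cnn1 and Myh11 were only 0.684 and 2.40 CPM in VEH_7, so these genes had little room to fall there.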

How the results depend on the processing

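With DESeq2 size factors or without a filter on low counts, all 31 tested fold changes of members kept their direction and their side of the threshold, and all 96 group means under DESeq2 size factors or plain library totals moved by less than 1 SD. DESeq2 added Tagln to the calls in SPON against WT (1.09, adjusted p = 0.00898) and in the difference between sets (-1.39, 0.0453), and 1 fit over 32 libraries added Tagln in SPON against WT (1.08, 0.0311). With limma voom, 1 member was called in SPON against WT, Tagln in MYT against VEH stood at -0.91 (adjusted p = 0.0566) and Acta2 in SPON against WT at 1.24 (0.0637). It reversed 4 values that no tool called: Sox10 (-0.77) and Oxtr (0.45) in M20_7 against VEH_7, Myh11 in SPON against WT (0.0595) and Oxtr in the difference between sets (-0.0727). The cause was not tested. Over all genes, SPON against WT gave 1303 calls with edgeR, 2648 with DESeq2 and 5472 with 1 fit over 32 libraries (703 higher and 600 lower with edgeR, 557 and 766 with voom), and the difference between sets 6151 and, with 1 fit, 3501.

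Leaving out 1 library gave 1 to 3 called members in SPON against WT, 4 to 6 in MYT against VEH, 3 to 5 in the difference between sets and 0 in M20_7 against VEH_7, and 506 to 1887 called genes in SPON against WT. It reversed uncalled values in M20_7 against VEH_7 (Sox10 -0.35 to 1.03, Acta2 -0.0925 to 0.79, Oxtr -1.69 to 0.53), in SPON against WT (Myh11 -0.29 to 0.29, Cnn1 -0.42 to 1.71) and in the difference between sets (Trp63 -0.0940 to 0.93, Oxtr -0.22 to 1.99). No paired analysis was possible because replicate numbers follow accession order and pair nothing. Low counts limit Oxtr in VEH, MYT and SPON, and Trp63, Sox10, Cnn1 and Oxtr in the groups ending in _7. Summed reads in VEH_7 and M20_7 were 93 and 67 for Trp63 and 78 and 134 for Sox10. For Cnn1 they were 57 and 119, and for Oxtr 110 and 85.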

Other observations

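The library whose title says vehicle and whose treatment field says RP-6306 belonged to no group and entered no comparison. In it Trp63 stood at 12.6 CPM, Sox10 at 1.92, Acta2 at 58.4, Myh11 at 2.41, Cnn1 at 23.0, Mylk at 27.3, Tagln at 16.7 and Oxtr at 0.274 CPM. Its summed luminal markers stood at 864 CPM and its summed fibroblast markers at 11962 CPM.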
